A study of Mus musculus with 10 samples.

Results

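The macrophages described here are CD206hi tumor-associated macrophages (TAMs) sorted from mouse mammary tumors, and the comparison is between hosts that lack and hosts that carry integrin beta3 in the macrophage lineage. The arrays were chosen by their titles, 3 of b3KOM TAMs and 3 of wild-type (WT) TAMs, which are 6 of the 10 arrays of the study. The b3KOM hosts carry a deletion of integrin beta3 that is restricted to the macrophage lineage, and WT mice served as the controls. Mice of both groups received 100000 PyMT-BO1-GFP-Luc cells, mouse mammary tumor cells labelled with green fluorescent protein and luciferase, in the mammary fat pad. Tumors of both groups were taken on day 10. The sources used here give neither the driver of the deletion nor the age of the mice nor the number of mice per array. The p-values therefore measure the spread between these arrays, which may in part be technical. The other 4 arrays hold tumor cells sorted from such tumors, 2 from WT and 2 from b3KOM hosts.

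Integrin beta3 pairs with the alpha v chain to form a receptor for vitronectin, fibronectin and osteopontin, and in cells of the macrophage lineage it signals through Src and Syk kinases. CD206, the mannose receptor, marks macrophages that respond to interleukin 4, which acts through STAT6 to induce genes such as Arg1 and Mgl2. Interferon gamma, made by T and NK cells, induces guanylate-binding proteins, immunity-related GTPases, the T cell chemokines Cxcl9 and Cxcl10, and MHC class II. The comparison asks which of these programs differ in TAMs when integrin beta3 is lost.

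Values are RMA expression on the log2 scale, so that a difference of 1 is a doubling. Probesets could be named only through the authors' deposited tables of selected genes, one for TAMs (122 rows) and one for tumor cells (130 rows). The genes of the TAM table were chosen by the authors on these same arrays, so their genotype differences are given as a description. The genes of the tumor cell table were chosen for their difference on the 4 other arrays. The authors title each table as unique genes, and the sources used here do not define the word. Whether values in TAMs also played a part in that choice is therefore not known. Presence in the TAM table did not bar every gene, since the probeset of Zfp248 is in both tables. Itgb3 and Mrc1, which encodes CD206, are in neither table and were not analysed here, which leaves the deletion and the sorted marker unchecked.

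The sorted cells carried the expression of macrophages. Each of the 19 named macrophage markers exceeded its tumor cell level, by 3.42 to 5.79 on the log2 scale. The 4 named members of the tumor epithelial list used here (Epha4, Il24, St6galnac1 and Glycam1) did not pass the filter on dim probesets in TAMs. In WT and b3KOM tumor cells Il24 had means of 8.08 and 7.30 and Epha4 of 5.44 and 5.79. St6galnac1 (3.43 and 2.50) and Glycam1 (4.09 and 5.66) were dim or fairly dim there too, so they say little about tumor cell RNA in TAMs. The epithelial markers Krt8, Krt18, Epcam and Cdh1 were not named, so the list is a weak check for tumor cell RNA in TAMs. Of the listed markers of T and NK cells only Ctla2a and Cxcr3 were named, and of B cells, neutrophils, dendritic cells, endothelium, fibroblasts and mast cells none. In sorted bulk RNA, fewer cells of a type and less RNA per cell cannot be told apart.

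WT replicate 3 stood apart from the other TAM arrays. The 5 pairs of arrays that include it had a Pearson's r of 0.977 to 0.978 over the tested probesets, against 0.978 to 0.982 in the other 10 pairs. Pairs of the same genotype (r of 0.977 to 0.982) were as alike as pairs of different genotype (0.977 to 0.982). The first principal component, with 24.6% of the variance, separated WT replicate 3 from the 5 others and did not separate the genotypes. The number in the title of WT replicate 3 is higher than those of all tumor cell arrays. The title numbers of all other TAM arrays are lower than those of the tumor cell arrays. WT replicate 3 is thus numbered apart from the run of the other TAM arrays. Whether this order bears on its values was not tested. Results that rest on WT replicate 3 are given below with and without it.

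Across all probesets, the expression of TAMs of the 2 genotypes was close, and no single gene passed the test. Of 18010 tested probesets, limma called 0 at a Benjamini-Hochberg adjusted p under 0.05 (0%), and the smallest adjusted p was 0.197. The 18010 include 2712 probesets (15.1%) with IDs below any in the authors' tables. Whether these measure genes is not known from the sources used here. The unadjusted p was under 0.05 for 781 probesets (4.34%), of which 366 (2.03%) were higher and 415 (2.3%) lower in b3KOM. It was under 0.01 for 162 (0.9%), 71 higher (0.394%) and 91 lower (0.505%). The genotypes did not overlap in 1572 (8.73%), 825 higher (4.58%) and 747 lower (4.15%). The b3KOM mean was the higher one for 51.6% of probesets and the lower one for 48.4%. The median log2 difference was 0.0053 and the median size of a difference was 0.10, beside a median SE of 0.14. The median spread between arrays of 1 genotype was 0.18 (SD). Only 114 probesets (0.633%) differed by more than 1 log2 unit, 45 higher and 69 lower.

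**Figure D1:**
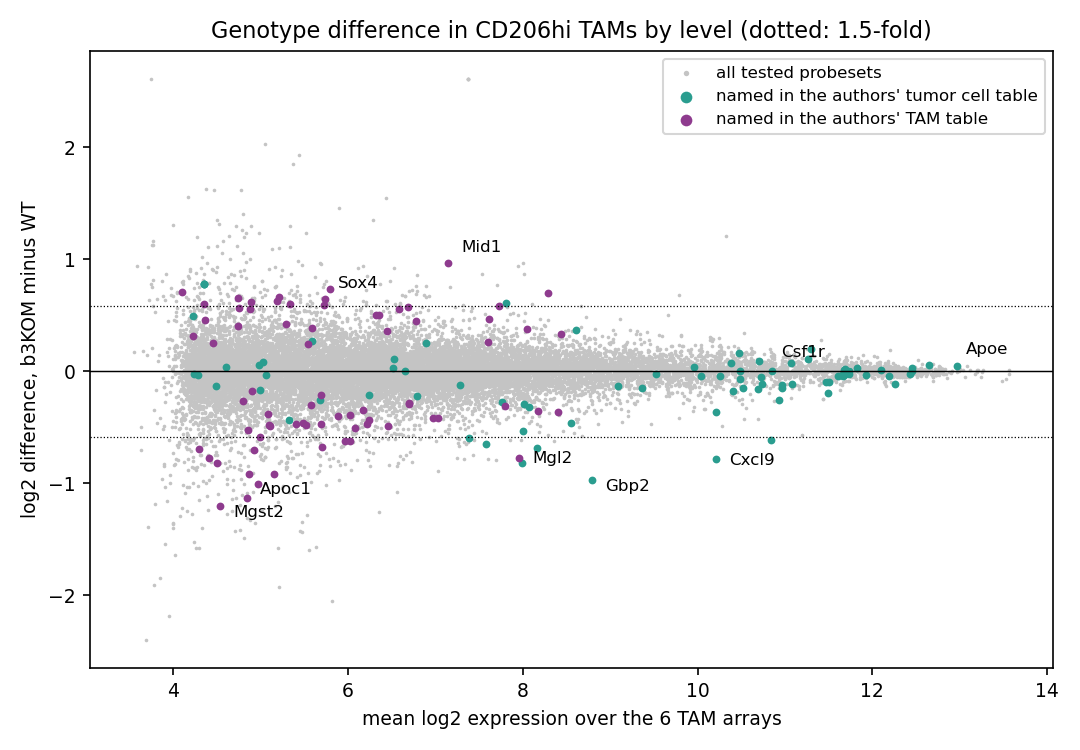
The log2 difference (b3KOM minus WT) of each of 18010 tested probesets is plotted against its mean log2 expression over the 6 TAM arrays, with dotted lines at 1.5-fold and named genes in colour. Differences narrow with level, Mid1 and Mgst2 lie at the edges among named genes, and Csf1r and Apoe lie on the zero line.

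The intervals bound how large a difference could have been missed. For 90.4% of tested probesets the 95% interval of the difference, not adjusted for the number of probesets, lay within a 2-fold change in either direction, and for 67.9% within 1.5-fold (0.58 on the log2 scale). The precision rose with level. Among the 7612 probesets with a mean under 6, the interval lay within 1.5-fold for 51.0%, and among the 1538 with a mean of at least 10 for 97.6%. The share at an unadjusted p under 0.05 fell with level as well, from 6.07% under 6 to 0.325% (5 probesets) at 10 and over, in a fit that shrinks all spreads toward 1 common value.

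**Figure D2:**
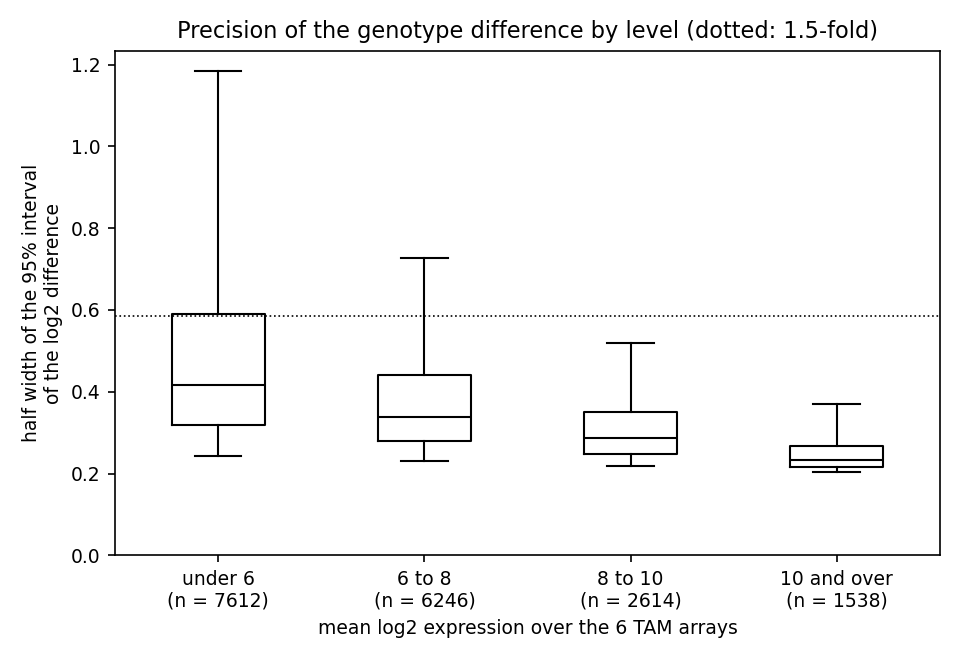
The distance from the log2 difference to the bound of its 95% interval is shown for tested probesets in 4 classes of mean log2 expression (boxes are quartiles with the median, whiskers the 5th and 95th percentiles, the dotted line 1.5-fold). The widths shrink from dim to bright probesets, where nearly all lie under the 1.5-fold line.

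Macrophage identity genes did not differ detectably between the genotypes, and the data bound their difference tightly. Csf1r, the receptor of the growth factor CSF1 on which macrophages depend, measured 10.92, 10.78 and 10.86 on the WT arrays and 10.78, 10.94 and 10.84 on the b3KOM arrays. The 2 groups overlapped, with a log2 difference of 0.0044 ± 0.10 (SE, 95% interval -0.23 to 0.24). Cd68, a lysosomal glycoprotein of macrophages, measured 11.66, 11.64 and 11.72 in WT and 11.78, 11.69 and 11.58 in b3KOM, again overlapping (0.0097 ± 0.10). Of the 19 named macrophage markers, 0 passed, 12 had higher and 7 lower values in b3KOM, and the median difference was 0.010, beside 0.0053 over all tested probesets. The differences ran from -0.17 (Sirpb1a) to 0.16 (F13a1), and every interval lay between -0.52 and 0.50, that is, within 1.5-fold.

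The same held for the genes of phagocytosis within this list. The complement components C1qa, C1qb and C1qc, which coat apoptotic cells and immune complexes, differed by 0.016 ± 0.09, 0.013 ± 0.09 and -0.027 ± 0.09 (SE). Fcer1g and Tyrobp, signaling adaptors of Fc and other myeloid receptors, differed by 0.0035 ± 0.09 and -0.039 ± 0.09, and the Fc receptor Fcgr3 by -0.029 ± 0.09. Itgam, the CD11b integrin chain differed by 0.07 ± 0.10 (95% interval -0.18 to 0.32). Their replicate SDs within a genotype were 0.016 to 0.13, beside a median of 0.18 over all tested probesets.

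**Figure D3:**
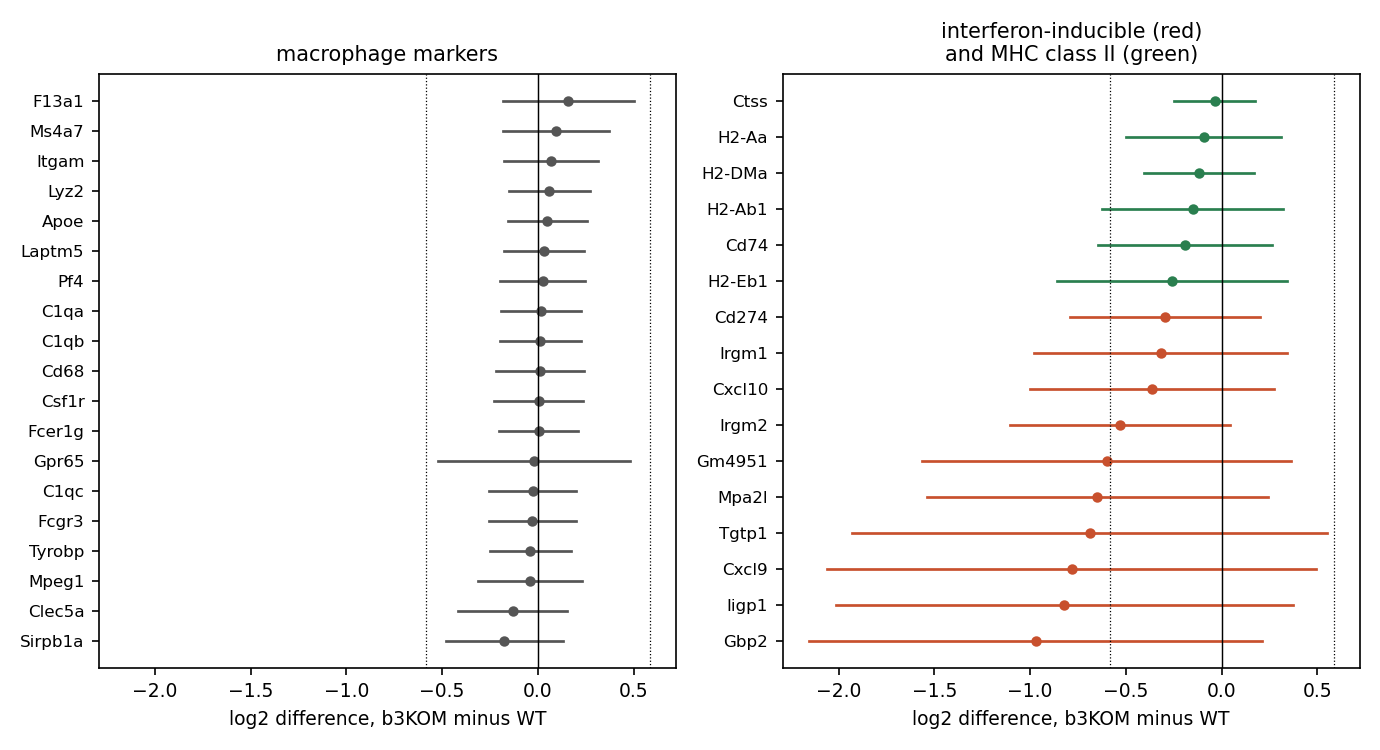
The log2 difference (b3KOM minus WT, points) and its 95% interval (bars) are shown for macrophage markers (left) and for the interferon-inducible and MHC class II genes reported here (right), all named through the authors' tumor cell table. The macrophage markers cluster on zero within the dotted 1.5-fold lines, and the interferon-inducible genes lie on the negative side with intervals that all include zero.

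Genes of alternative activation gave no common direction. Arg1, the arginine-consuming enzyme of interleukin 4-treated macrophages, measured 11.22, 11.11 and 10.75 in WT and 11.16, 11.05 and 11.11 in b3KOM, a difference of 0.08 ± 0.14 (SE, 95% interval -0.26 to 0.42). Ccl8, a monocyte-attracting chemokine, differed by -0.10 ± 0.17. Both were named through the tumor cell table, and neither passed or separated the genotypes. Mgl2, a galactose-type C-type lectin, was the member of the list that the authors' TAM table holds at a level above the filter. It measured 8.10, 8.35 and 8.56 in WT and 7.69, 7.32 and 7.70 in b3KOM. All 3 b3KOM arrays lay below all 3 WT arrays, with a log2 difference of -0.77 ± 0.17 (95% interval -1.17 to -0.37) and a limma adjusted p of 0.913.

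Interferon-inducible genes had lower mean values in b3KOM TAMs, with a wide spread between arrays of the same genotype. All 11 tested members with a name from the tumor cell list had a lower b3KOM mean, with a median log2 difference of -0.60, beside 48.4% of all tested probesets with a lower b3KOM value. None of the 11 passed, none had an unadjusted p under 0.05 (4.34% over all), and none separated the genotypes (8.73% over all). Gbp2, a guanylate-binding GTPase, measured 9.04, 8.98 and 9.81 in WT and 8.04, 7.50 and 9.37 in b3KOM. Its b3KOM replicate 3 lay above WT replicates 1 and 2, and the log2 difference was -0.97 ± 0.49 (SE, 95% interval -2.16 to 0.21).

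The same order of arrays ran through the list. In all 11 genes WT replicate 3 was highest and b3KOM replicate 2 lowest, and in all 11 b3KOM replicate 3 exceeded both other WT arrays. The mean level of the 11 genes was 8.48, 8.49 and 9.27 on the WT arrays and 7.98, 7.64 and 8.84 on the b3KOM arrays. Cxcl9, a chemokine that draws T cells through the receptor Cxcr3, measured 10.30, 10.19 and 11.31 in WT and 9.70, 8.90 and 10.85 in b3KOM (-0.78 ± 0.53, SE). Iigp1, an immunity-related GTPase, measured 8.08, 8.12 and 8.99 in WT and 7.16, 6.90 and 8.66 in b3KOM (-0.82 ± 0.50). The genotypes thus overlapped in each, and the replicate SD of Cxcl9 was 0.62 in WT and 0.98 in b3KOM.

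The remaining members spanned a range of smaller differences. Tgtp1 and Mpa2l (now Gbp6), both interferon-induced GTPases, differed by -0.69 ± 0.52 and -0.65 ± 0.37, and Irgm2 by -0.53 ± 0.24. Cxcl10 differed by -0.36 ± 0.26 and Cd274, which encodes the T cell inhibitory ligand PD-L1, by -0.29 ± 0.21. All intervals included zero. The list's median difference was -0.31 without WT replicate 3, -0.36 without b3KOM replicate 2 and -0.88 without b3KOM replicate 3, so that leaving out either of the first 2 moved its size by over 1.5 times, and it stayed negative without any 1 of the 6 arrays. Without WT replicate 3 the difference was -0.43 for Cxcl9, -0.53 for Iigp1, -0.31 for Tgtp1 and -0.40 for Mpa2l.

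**Figure D4:**
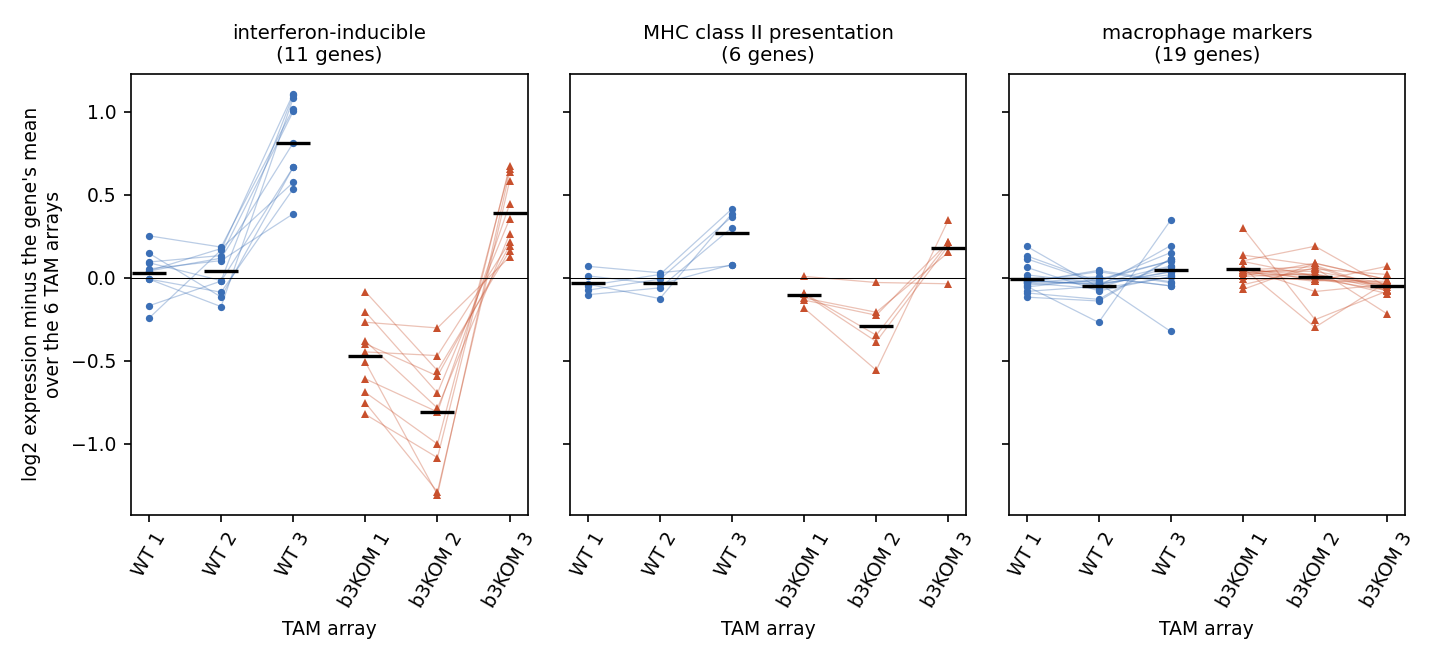
Each gene's log2 expression minus its own mean over the 6 TAM arrays is shown by array for 3 gene lists named through the tumor cell table (points are genes, thin lines join a gene across arrays of 1 genotype, black bars are list means). WT replicate 3 and b3KOM replicate 3 are high and b3KOM replicates 1 and 2 low in the interferon-inducible list, the MHC class II list follows with smaller steps, and the macrophage markers stay near zero.

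Promoters of interferon-inducible genes carry binding motifs of the factors that the response activates, and those of the genes above are shown because the genes moved together across arrays. Promoter windows from RefSeq (build GRCm38.p6, each spanning the start of the gene) were matched for 7 of the 11 genes. The interferon-stimulated response element, searched on both strands as GAAA, any 2 bases and GAAA, was found in 5 of the 7, against 3.44% of 32851 windows of the same length. The windows of Cxcl9 and Cd274 held no match, nor did those of Trex1, an interferon-linked gene of the TAM table. The list was made of known interferon-inducible genes, whose promoters often carry this element, so the share says nothing about the genotypes or these arrays. The gamma-activated site, searched as TTCNNNGAA on both strands, was found in 2 of the 7, against 8.30% of windows. Capitals mark the matches to the interferon-stimulated response element, in either orientation. The Gbp2 window is chr3:142620413-142620712, plus strand, that of Irgm2 chr11:58214727-58215026, plus strand, that of Cxcl10 chr5:92348840-92349139, minus strand and that of Tgtp1 chr11:48992197-48992496, minus strand. A match is a description of the letters and not a measured site.
Gbp2: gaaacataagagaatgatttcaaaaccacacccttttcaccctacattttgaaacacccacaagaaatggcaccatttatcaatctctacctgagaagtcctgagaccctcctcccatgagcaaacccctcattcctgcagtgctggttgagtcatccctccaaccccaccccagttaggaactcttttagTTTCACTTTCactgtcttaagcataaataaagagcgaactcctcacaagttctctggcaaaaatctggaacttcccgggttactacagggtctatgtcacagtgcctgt
Irgm2: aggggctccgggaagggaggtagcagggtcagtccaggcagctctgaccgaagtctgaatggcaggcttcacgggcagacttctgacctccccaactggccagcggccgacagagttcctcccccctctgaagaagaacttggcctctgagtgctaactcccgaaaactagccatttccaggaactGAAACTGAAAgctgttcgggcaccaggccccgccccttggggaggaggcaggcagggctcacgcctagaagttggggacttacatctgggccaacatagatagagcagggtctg
Cxcl10: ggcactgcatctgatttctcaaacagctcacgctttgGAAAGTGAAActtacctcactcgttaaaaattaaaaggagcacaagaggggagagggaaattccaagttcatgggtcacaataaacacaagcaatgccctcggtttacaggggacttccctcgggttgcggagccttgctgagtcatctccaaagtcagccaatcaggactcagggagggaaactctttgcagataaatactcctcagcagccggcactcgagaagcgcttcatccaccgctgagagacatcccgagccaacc
Tgtp1: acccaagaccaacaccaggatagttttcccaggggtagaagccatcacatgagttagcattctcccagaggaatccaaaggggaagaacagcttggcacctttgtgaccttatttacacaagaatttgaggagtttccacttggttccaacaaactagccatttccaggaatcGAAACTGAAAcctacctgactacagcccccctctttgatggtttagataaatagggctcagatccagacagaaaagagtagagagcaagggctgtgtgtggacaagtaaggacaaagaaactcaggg

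MHC class II genes, which present antigen to CD4 T cells, followed the same arrays with smaller steps. H2-Eb1, a beta chain of the class II molecule, measured 10.89, 10.96 and 11.35 in WT and 10.75, 10.38 and 11.29 in b3KOM, a difference of -0.26 ± 0.25 (SE). WT replicate 3 was highest in 5 of the 6 named genes and b3KOM replicate 2 lowest in 5. The genotypes overlapped, since b3KOM replicate 3 exceeded WT replicates 1 and 2 in 5 of the 6. Cd74, the invariant chain, differed by -0.19 ± 0.19, H2-Ab1 by -0.15 ± 0.20, H2-DMa by -0.12 ± 0.12, H2-Aa by -0.09 ± 0.17 and Ctss, the protease that trims the invariant chain, by -0.037 ± 0.09. All 6 had a lower b3KOM mean, 0 passed, and the median of -0.13 was -0.030 without WT replicate 3, -0.037 without b3KOM replicate 2 and -0.26 without b3KOM replicate 3.

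Among chemokines and their receptors no gene passed the test. Of 8 named members, 6 had lower and 2 higher b3KOM means, the genotypes did not overlap in 1 (beside 8.73% of all tested probesets), and the median was -0.12. It was -0.018 without WT replicate 3 and -0.21 without b3KOM replicate 1. Cxcr3, the receptor of Cxcl9 and Cxcl10 and a marker of activated T and NK cells, measured 5.44, 5.26 and 5.90 in WT and 5.12, 5.09 and 5.10 in b3KOM. The b3KOM arrays were nearly equal and all below WT, with a log2 difference of -0.43 ± 0.17 (SE) that did not pass and was -0.25 without WT replicate 3. Ctla2a, the other named member of the T and NK cell list, had a higher b3KOM mean (0.70 ± 0.13). In Cxcr3, though not in Ctla2a, WT replicate 3 was highest, as in the interferon-inducible genes of the tumor cell table. Unlike in those, b3KOM replicate 3 of Cxcr3 lay below every WT array. Both genes were brighter in the sorted tumor cells, with TAM minus tumor cell differences of -0.86 (Cxcr3) and -1.58 (Ctla2a). The part of other cells in these results was not tested. Ccr2, the receptor that brings monocytes into tissue, measured 8.29, 8.30 and 8.70 in WT and 9.15, 8.49 and 8.75 in b3KOM, with overlap. That difference of 0.37 ± 0.20 did not pass, and Cxcr4 (-0.15 ± 0.21) did not either.

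Among heme, metal and lipid genes the members named through the tumor cell table stayed close to zero. Hmox1, which degrades heme, differed by 0.20 ± 0.15 (SE), the metallothionein Mt2 by -0.11 ± 0.13, and the zinc exporter Slc30a1 by -0.0010 ± 0.13. Apoe, the apolipoprotein of lipid-loaded macrophages, measured 12.94, 12.97 and 12.92 in WT and 12.99, 12.95 and 13.04 in b3KOM, a difference of 0.05 ± 0.09. Apoc2, the activator of lipoprotein lipase, differed by -0.045 ± 0.17. None of the 5 passed or separated the genotypes.

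Of the 130 genes that the authors chose on tumor cells, 82 passed the filter in TAMs, at a median level of 10.24. Of these, 3 (3.66%) had an unadjusted p under 0.05, beside 4.34% of all tested probesets and 0.325% of those with a mean of at least 10. They were Cxcr3, Snord14d and Gm129. The genotypes did not overlap in 5 (6.10%, beside 8.73%), which were those 3 with Cd52 and Rgs1. The median log2 difference of the 82 was -0.038. These shares may depend on how the authors made a table of unique genes, so nothing is read from them. Among the other named members with higher b3KOM values, the smallest unadjusted p belonged to Glipr2 at 0.27 ± 0.12 (SE), followed by Ccr2, Hmox1, F13a1 and C3ar1, the complement C3a receptor, at 0.11 ± 0.10. Fam167b (0.25 ± 0.25), Ms4a7 (0.09 ± 0.12), Minpp1 (0.11 ± 0.14) and Lyz2, macrophage lysozyme (0.06 ± 0.09), came next, and 0 of these passed. On the lower side, Ifitm1, an interferon-induced membrane protein, differed by -0.62 ± 0.33 with an order of arrays unlike that of the interferon list, since b3KOM replicate 3 was its lowest array at 10.17.

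The genes of the authors' TAM table describe the edge of the distribution on these arrays. Of its 122 rows, 72 passed the filter, 32 higher and 40 lower in b3KOM, and the median level of these 72 was 5.64. The genotypes did not overlap in 69 of the 72 and differed by at least 1.5-fold as well in 25, beside 1.06% of all tested probesets for both together (0.461% higher and 0.6% lower). Since the authors chose the rows for their difference on these arrays, nothing is read from that count. All 122 differences had the sign of the authors' deposited table, which gives WT against b3KOM, and departed from it in size by a median of 0.067. In the fit of the 6 arrays 0 of the 72 passed, and the adjusted p ran from 0.200 upward. Of the 72, 1 passed the filter through its WT arrays alone and 1 through its b3KOM arrays alone.

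Mid1, a microtubule-associated ubiquitin ligase, had the largest higher value among the named genes. It measured 6.58, 6.68 and 6.73 in WT and 7.63, 7.60 and 7.65 in b3KOM. The groups lay far apart relative to their spread, with a log2 difference of 0.96 ± 0.09 (SE, 95% interval 0.74 to 1.18), or 1.95-fold, and a limma adjusted p of 0.200. In the authors' deposited table it stands at -0.87 for WT against b3KOM. With the tumor cell arrays in the fit its adjusted p was 0.0109, and without any 1 TAM array the difference was 0.92 to 0.996.

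Several regulators of transcription from the same table had higher values beside it. Sox4, an SRY-box transcription factor, measured 5.39, 5.45 and 5.38 in WT and 5.97, 6.14 and 6.04 in b3KOM, a difference of 0.64 ± 0.09 (SE, adjusted p 0.498). Its 3 b3KOM arrays were all above WT. Zfp341, a zinc finger transcription factor, differed by 0.66 ± 0.12, Phf16 (now Jade3), a subunit of histone acetyltransferase complexes, by 0.60 ± 0.13, and Smad5, which relays bone morphogenetic protein signals, by 0.45 ± 0.11. In the transcription and chromatin list, which also holds Mid1, 5 of the 6 tested members were higher and 1, Taf1d (-0.68 ± 0.18), was lower. Of them 0 passed, and all came from the TAM table, where 32 of the 72 tested rows were higher and 40 lower. The list does not hold every such gene, since the homeobox factor Hoxa4, lower in b3KOM, is not in it. No common direction is read from it. Ccne2 was the 1 tested cell cycle gene and had a difference of 0.50.

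Further higher genes had varied roles. Ctla2a, an inhibitor of cathepsin-type proteases that is also on the T and NK cell list, measured 7.81, 8.10 and 7.91 in WT and 8.59, 8.82 and 8.50 in b3KOM (0.70 ± 0.13, SE). Its near copy Ctla2b differed by 0.33 with overlapping genotypes, and signal can be shared between the probesets. Myo9a, an unconventional myosin, differed by 0.73 ± 0.16 and Fhl3, a LIM-domain protein, by 0.58 ± 0.14. Tceal1 differed by 0.63 ± 0.14, Ttc8, a subunit of the BBSome of cilia, by 0.56 ± 0.12, and St7l by 0.55 ± 0.13. None of these genes passed.

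**Figure D5:**
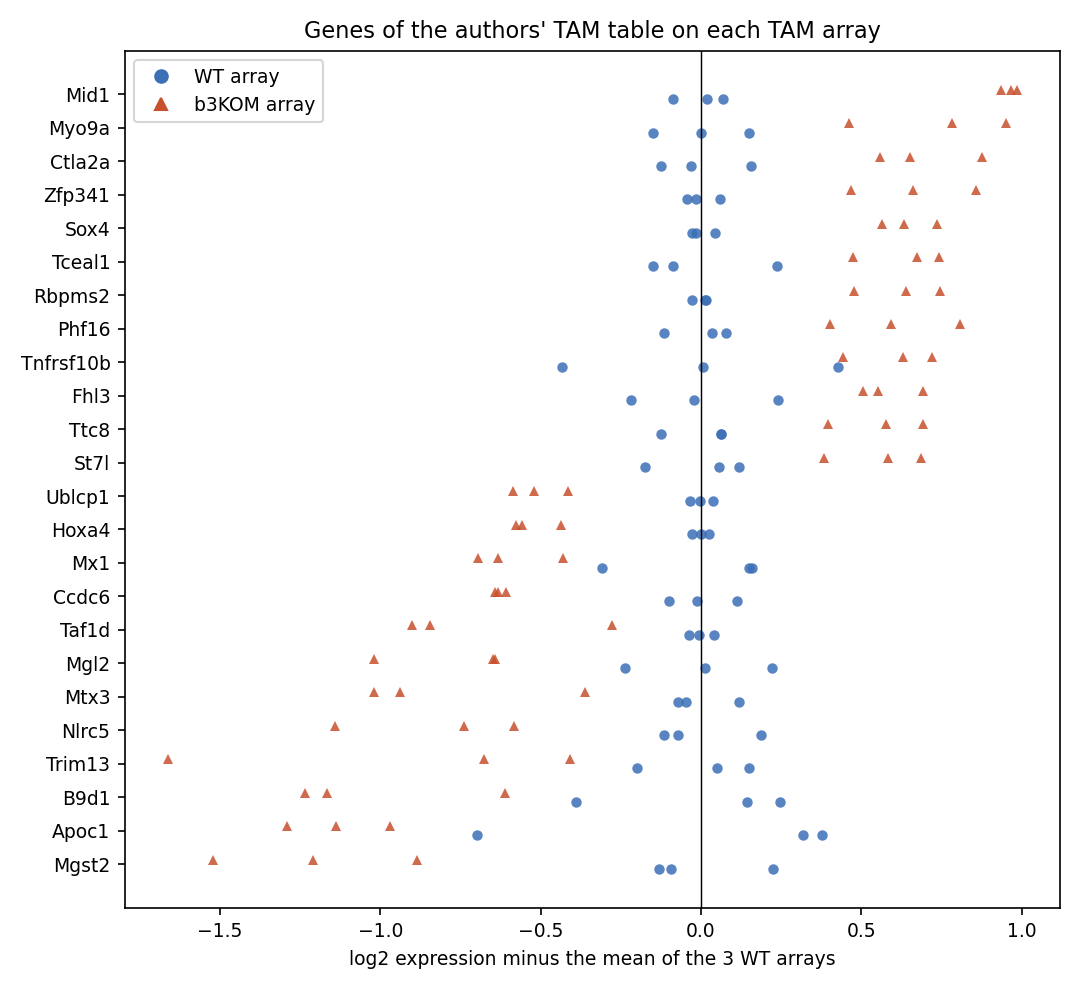
Each array's log2 expression minus the mean of the 3 WT arrays is plotted for the 12 genes per direction with the largest difference in the authors' TAM table (circles WT, triangles b3KOM). The genotypes separate in each gene because the rule took such genes, Mid1 and Ccdc6 have the tightest b3KOM arrays, and Trim13, B9d1 and Apoc1 spread widely.

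The lower genes included Mgst2 and Apoc1, the 1 tested member that the TAM table holds of the redox and of the lipid list each. Mgst2, a microsomal glutathione transferase that also makes leukotriene C4, measured 5.05, 5.01 and 5.36 in WT and 3.62, 3.93 and 4.25 in b3KOM. Every b3KOM array lay below WT, with a difference of -1.21 ± 0.19 (SE, adjusted p 0.543), and the b3KOM mean of 3.93 ± 0.32 (SD, n = 3) lay below the filter level of 4.20. Apoc1, an apolipoprotein of lipid-handling macrophages, measured 5.72, 4.71 and 5.79 in WT and 4.44, 4.11 and 4.27 in b3KOM. WT replicate 2 lay closer to the b3KOM arrays than to the other WT arrays, and the difference of -1.13 ± 0.30 did not pass. Apoe and Apoc2, whose genes neighbour Apoc1, were those with differences near zero given above.

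The interferon-linked genes of the TAM table kept the genotypes apart where the interferon list of the tumor cell table did not. Nlrc5, the transactivator of MHC class I genes, measured 5.09, 4.84 and 4.79 in WT and 4.17, 3.77 and 4.32 in b3KOM, a difference of -0.82 ± 0.17 (SE, adjusted p 0.913). Mx1, an antiviral GTPase, measured 4.98, 5.44 and 5.43 in WT and 4.86, 4.59 and 4.65 in b3KOM (-0.59 ± 0.16), and Trex1, a DNA exonuclease that limits interferon induction, differed by -0.42 ± 0.11. The highest array was WT replicate 1 in Nlrc5, WT replicate 2 in Mx1 and WT replicate 3 in Trex1, and in all 3 genes b3KOM replicate 2 was lowest. None passed, and the separation of the genotypes was a condition of their choice.

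Other lower genes followed. Ccdc6, a coiled-coil protein of the DNA damage response, measured 6.45, 6.24 and 6.33 in WT and 5.70, 5.71 and 5.73 in b3KOM, a difference of -0.63 ± 0.10 (SE, adjusted p 0.537). Hoxa4, a homeobox factor, differed by -0.52 ± 0.09 and Ublcp1, a phosphatase of the proteasome, by -0.51 ± 0.09, both with SDs under 0.10 in each genotype. B9d1, a protein of the ciliary transition zone, differed by -1.004 ± 0.23, Trim13, a ubiquitin ligase of the endoplasmic reticulum, by -0.92 ± 0.32 and Mtx3 by -0.77 ± 0.19. Trim13 measured 3.95 on b3KOM replicate 3 against 5.20 and 4.93 on the other b3KOM arrays, and its difference was -0.54 without that array.

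Some of these genes were brighter in tumor cells. Rbpms2, an RNA-binding protein, had a TAM minus tumor cell difference of -3.42 on the log2 scale and Tnfrsf10b, a receptor for TRAIL, of -3.46, and both had higher values in b3KOM TAMs (0.62 ± 0.10 and 0.60 ± 0.22, SE). That of Tnfrsf10b was 0.38 without WT replicate 1. B9d1 and Mgst2 had TAM minus tumor cell differences of -2.75 and -2.36 and had lower values in b3KOM TAMs. The 48 probesets over 4 log2 units brighter in tumor cells had median levels of 4.23, 4.76 and 4.09 on the WT TAM arrays and 4.44, 4.31 and 4.82 on the b3KOM TAM arrays, so the genotypes overlapped. Of the 30 of them that passed the filter, 0 passed the test, the median difference over all 48 was 0.09, and 3.33% of the 30 intervals lay within 1.5-fold. The part of tumor cell RNA in the results was not tested. The 337 probesets over 4 log2 units brighter in TAMs had a median genotype difference of -0.027. Of these, 16 (4.75%) had an unadjusted p under 0.05, beside 4.34% of all tested probesets. Of their intervals 76.0% lay within 1.5-fold, beside 67.9%. Their median levels on the TAM arrays were 9.14 to 9.28. Among all tested probesets with a mean of 8 to 10, 2.03% had such a p and 88.6% of intervals lay within 1.5-fold.

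The row with the largest fold in the authors' deposited TAM table is a microRNA gene that did not pass the filter. Mir99a stands there at a log2 fold change of 1.47 for WT against b3KOM, and measured 4.18, 4.03 and 4.22 in WT and 2.60, 2.24 and 2.91 in b3KOM. Mir24-1, the other microRNA gene of the table, measured 3.56, 3.25 and 3.45 in WT and 2.62, 2.50 and 2.93 in b3KOM. Both were lower in every b3KOM array but lay near or below the filter level of 4.20 in each group, were not tested, and were named after their values were seen. A probeset of a microRNA gene does not separate its mature arms, which are shown from RefSeq (GRCm38.p6) with the seed, bases 2 to 8, in capitals. The 4 seeds differ from each other.
mmu-miR-99a-5p: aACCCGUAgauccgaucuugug
mmu-miR-99a-3p: cAAGCUCGuuucuaugggucu
mmu-miR-24-1-5p: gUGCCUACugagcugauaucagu
mmu-miR-24-3p: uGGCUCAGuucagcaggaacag

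Whether the genotype difference in TAMs departs from that in tumor cells was tested by the interaction over all 10 arrays. Of the 18010 probesets limma called 0 (0%), with 665 at an unadjusted p under 0.05. With an intensity trend and robust fitting 11 were called, all named in the tumor cell table. Among them were Cxcl2, a neutrophil-attracting chemokine, with -0.040 in TAMs and 1.26 in tumor cells, and Pf4, platelet factor 4, with 0.024 and 1.17. Cxcl2 and Pf4 were brighter in TAMs than in tumor cells, by 6.41 and 4.09 on the log2 scale. Of the 11 genes, Pf4, Laptm5 and Tyrobp are on the macrophage marker list. The part of macrophage RNA in the tumor cell arrays was not tested. The authors chose the 11 genes for their difference on the tumor cell arrays, so their interaction is not independent of that choice.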

How the data were processed

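Per the submitters' processing notes, the authors made the deposited log2 values with RMA in Affymetrix Expression Console, 1 value per probeset (35556 probesets). The sources used here name neither the versions nor the array model. Per the labels' protocols, 50 ng of RNA per sample was amplified. Per the file headers, the authors' deposited tables hold, per gene, a log fold change (WT against b3KOM, taken as log2), a t score and a p-value of at most 0.00996, taken as unadjusted. Gene names come from these tables alone, and 118 of 122 and 122 of 130 matched a current RefSeq symbol.

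The 6 TAM arrays (medians 4.18 to 4.22) were fitted alone with limma 3.58.1 in R 4.3.3 (lmFit, eBayes, 4 residual and 2.46 prior degrees of freedom, two-sided, Benjamini-Hochberg). Probesets above the median of these arrays (4.20) on at least 3 arrays were tested, 18010 in all, of which 41 passed through the WT arrays alone and 32 through the b3KOM arrays alone. The number of arrays limits the precision. Alternatives were no filter, stricter and mean filters, an intensity trend with robust fitting, array weights (0.636 for WT replicate 3), cyclic loess, all 10 arrays and leaving out each array. The members, gene lists and naming rule were chosen with earlier results of these data known. The rule named, from the TAM table, the 12 non-overlapping genes per direction with the largest difference; from the tumor cell table, the 10 per direction with the smallest p; up to 6 members by p of each list with at least 3 named and tested members; the 8 with the largest spread; all named cell type markers; up to 4 tested microRNA genes; and 2 unnamed probesets per direction. Predicted genes, clone names, small RNAs and sensory receptors were not named by it. Lists with fewer than 3 tested members, or none, get values only. The values of 1 gene counted in the interferon-inducible list are not reported here.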

Additional observations from a re-analysis of the deposited data

How the results depend on the processing

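The count of 0 calls in TAMs held with no filter, the stricter filter, the filter on the mean (added after the data were seen), the intensity trend, array weights, cyclic loess and without any 1 array, where it ran from 0 to 0. With all 10 arrays limma called 9, among them Mid1 (log2 difference 0.96, adjusted p 0.0109), the clone 2610002M06Rik and 4 probesets that share 1 set of values. The adjusted p of Mid1 ran from 0.0109 to 0.873 over the alternatives. The unadjusted p was under 0.05 for 1556 probesets with no filter, when more are tested, and for 739 to 935 without 1 array. The interaction gave 11 calls with the intensity trend and robust fitting; the cause was not tested.

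Of 956 values of 74 named genes under the alternatives, 38 turned sign, in 18 genes that passed under none of them and whose main values lie near zero. With array weights Slc30a1 was 0.028, Gpr65 0.052 and Fcer1g -0.00011, and with cyclic loess Csf1r was -0.0053, Fcer1g -0.0074 and Cd68 -0.00080. Without 1 array, Ccl8 ran from -0.21 to 0.036, Slc30a1 from -0.094 to 0.066, Minpp1 from -0.0056 to 0.18, C1qa from -0.011 to 0.038, Csf1r from -0.038 to 0.040, Mpeg1 from -0.093 to 0.045, Fcgr3 from -0.058 to 0.015, Gpr65 from -0.18 to 0.15, C1qb from -0.0080 to 0.039, Fcer1g from -0.0099 to 0.027, C1qc from -0.061 to 0.018, Cd68 from -0.037 to 0.060, Apoc2 from -0.21 to 0.082, Cxcr4 from -0.30 to 0.038, Arg1 from -0.062 to 0.17, H2-Aa from -0.23 to 0.034, Pf4 from -0.0031 to 0.070 and H2-Ab1 from -0.29 to 0.0064. No paired analysis was possible because the labels give the TAM arrays no shared replicate numbers. Intervals were wider for dim than for bright probesets.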

Other observations

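The largest differences on the TAM arrays belonged to probesets without a name here, which were singled out by the naming rule or after their values were seen. Probeset 10389717 measured 4.75, 4.36 and 4.31 in WT and 6.20, 6.82 and 6.20 in b3KOM, which is 1.93 ± 0.21 (SE) higher on the log2 scale (limma adjusted p 0.200). Probeset 10339361 differed by 2.03 ± 0.23, and probeset 10340065 measured 5.08, 4.97 and 4.62 in WT and 2.80, 2.18 and 2.49 in b3KOM, a difference of -2.40 ± 0.20 (adjusted p 0.197). Probeset 10341514 differed by -0.81 ± 0.11. None passed, though the genotypes lay apart in each. The IDs of the last 3 lie below the lowest ID in the authors' tables, where 2712 tested probesets (15.1%) and 60 of the 162 at an unadjusted p under 0.01 lie. No probeset below that ID has a name here, so whether these measure genes is not known. They count in the multiple-testing adjustment and in every share over all tested probesets. The largest difference, 2.61, was shared by 4 probesets with the same value on every array, and 306 tested probesets share all their values with another.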
